A study of Rattus norvegicus with 4 samples.

Results

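The genes described here encode the proteasome: the subunits of its catalytic core, of the regulatory particle that caps the core, of the inducible immunoproteasome, and a few activators and assembly factors. They were taken by name from the array's own annotation, as every probe whose gene name begins with Psm followed by a class letter from a to g and a number. The rule matched 50 of 41012 probes on the array, for 42 genes. One of these, Psmc3ip, shares the name of a subunit and is none, and its probe stayed near background throughout. The other 49 probes, for 41 genes, were all tested. They comprised 14 genes of the constitutive core, 16 of the regulatory particle, 5 of the immunoproteasome (Psmb8, Psmb9, Psmb10, Psme1 and Psme2) and 6 others. Psma8, Psmb11, Psmd14, Psmf1 and Psmg1 to Psmg4 were not matched by the rule and were not analysed here as members.

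The proteasome is the cell's main protease for proteins tagged with ubiquitin. Its core is a barrel of stacked alpha and beta rings, in which 3 of the beta subunits (Psmb5, Psmb6 and Psmb7) cut peptide bonds, and the regulatory particle recognises, unfolds and feeds in the substrate. Under interferon, and constitutively in many leukocytes, newly made cores take up Psmb8, Psmb9 and Psmb10 in place of those 3, and the cap formed by Psme1 and Psme2 opens the core. Such immunoproteasomes yield peptides suited to class I antigen presentation.

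Colon mucosa RNA of F344 rats was measured on 4 Agilent arrays in 2 colours. Each array carried RNA of 2 rats given resveratrol, a plant polyphenol, at 1 mg/kg/day for 20 days and then 5% dextran sodium sulphate (DSS) to drink over 5 days, which provokes colitis. That RNA was labelled with Cy5, and the pool of control rats, which ate standard chow and received the same DSS, was labelled with Cy3 on every array. The values are log2 ratios of Cy5 over Cy3, so a positive value means a higher level in the resveratrol rats, and 8 rats stand behind the 4 arrays. Both sides received DSS, so no comparison with animals free of it is made here. No dyes were exchanged, and the control entered as 1 pool, so its own spread and any dye bias are part of every ratio. The labels number the rats separately and give neither age nor sex.

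Arrays 1 and 2 lay on one slide and arrays 3 and 4 on another. The scanner software marked 3.45% and 4.68% of probe spots as outliers on slide 1, and 11% and 13.7% on slide 2. Among the brightest 25% of spots, where 41 of the 50 proteasome probes lie, it marked 11.6% and 13.7% on slide 1 but 40.4% and 46.8% on slide 2. These spots were left out, as were control spots, and none of the 50 proteasome spots was lost on slide 1, 2 on array 3 and 4 on array 4. All 18 colonocyte markers listed were well enough above background to test. Of 9431 named genes tested, 45.3% were called, 25.7% higher and 19.6% lower (limma, Benjamini-Hochberg adjusted p at most 0.05), with a median log2 ratio of 0.02.

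Probes for the catalytic subunits that replace one another are shown first, because the comparison of inducible with constitutive subunits depends on telling these related genes apart. Each is 60 bases long, as listed in the scanner files, and the longest run that a pair has in common is in capitals.
Psmb8: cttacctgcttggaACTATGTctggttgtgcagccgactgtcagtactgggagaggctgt
Psmb5: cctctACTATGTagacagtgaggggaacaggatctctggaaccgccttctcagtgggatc
Psmb9: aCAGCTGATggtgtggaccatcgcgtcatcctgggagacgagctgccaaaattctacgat
Psmb6: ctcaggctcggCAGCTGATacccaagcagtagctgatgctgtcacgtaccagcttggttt
The longest shared run was 7 bases for Psmb8 and Psmb5, 8 bases for Psmb9 and Psmb6, and 5 bases for Psmb10 and Psmb7. In the rn3 build that the scanner files give, the Psmb8 probe lies at chr20:4788207-4788266 on the minus strand and the Psmb9 probe at chr20:4806568-4806627 on the plus strand. The Psmb5 probe lies at chr15:32705834-32705893 on the minus strand and the Psmb6 probe at chr10:57384991-57385050 on the plus strand. Each of these 4 probes spans 60 genomic bases, the length of the probe itself.

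Across the whole family the ratios leaned upward by small amounts. Of the 41 genes, 14 rose (34.1%, against 25.7% of all tested genes called higher) and 1 fell (2.44%, against 19.6% of all tested genes called lower), and 26 were not called. One of the 14, Psmd5, met the filter on dim probes through the resveratrol channel alone, which leaves 13 measured in both channels. The median log2 ratio was 0.22 against 0.02 over all tested genes, 35 of the 41 means were above 0, and 18 genes were positive on every array with a value. The range ran from -0.99 to 0.64, so no member reached a 2-fold change in either direction. The interquartile range of the members was 0.34 on the log2 scale, against 0.71 for all tested genes. In RNA of whole mucosa, fewer cells of a type and less RNA per cell cannot be told apart.

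**Figure D1:**
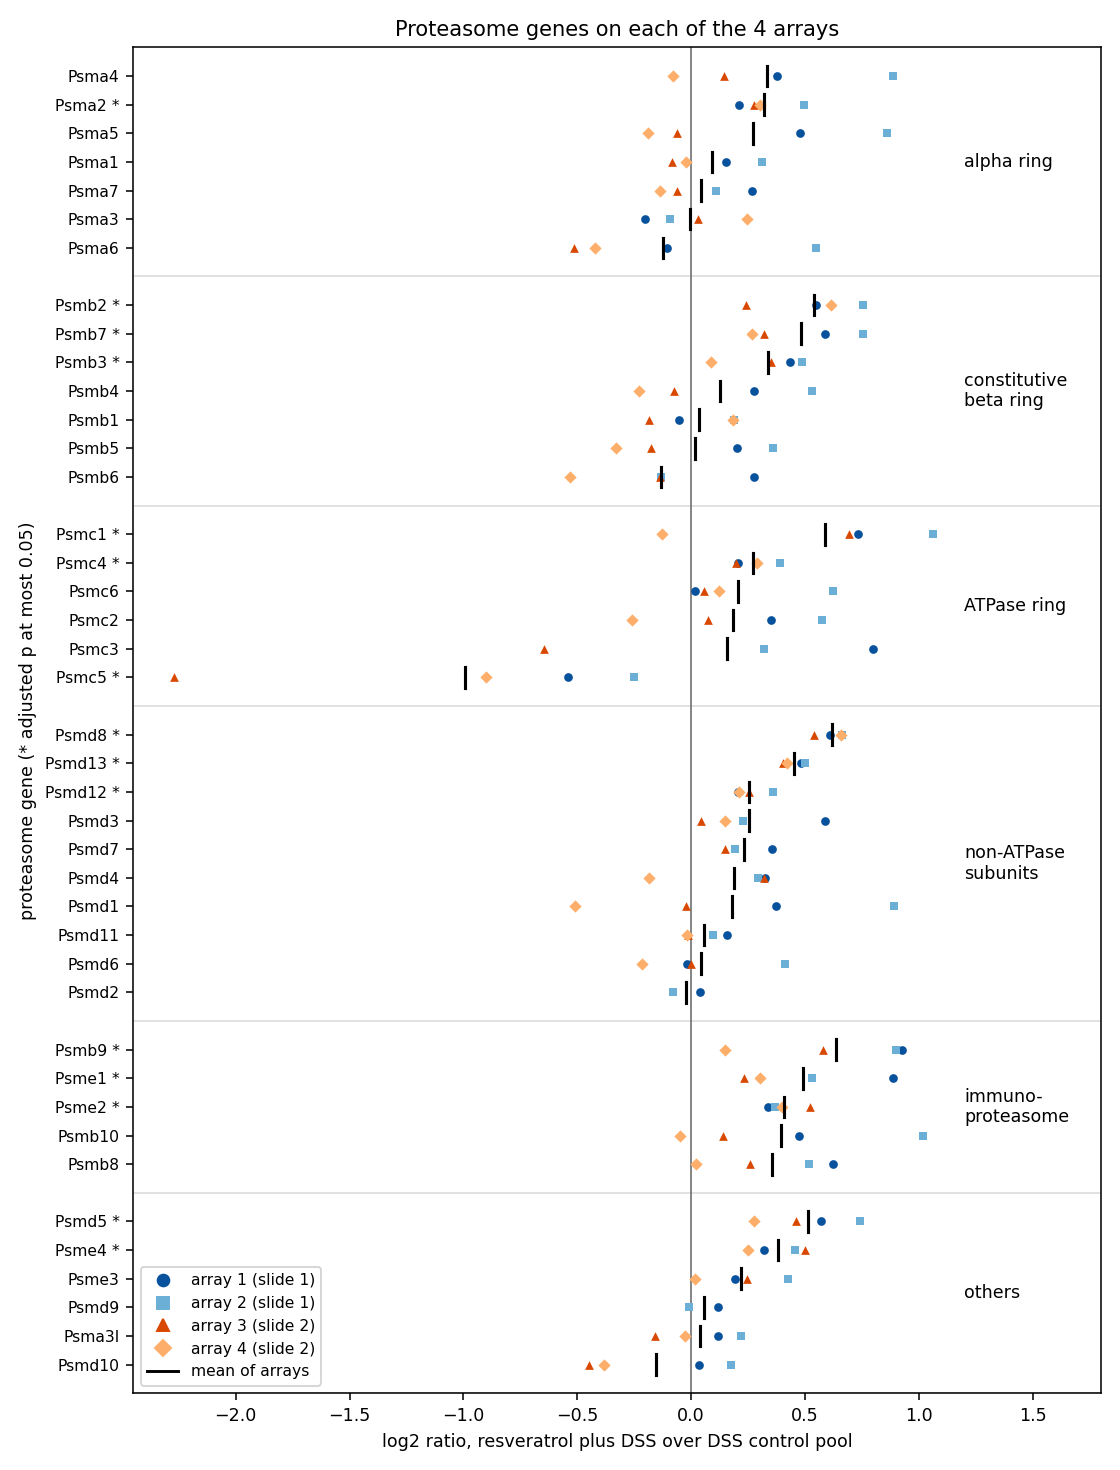
Log2 ratio of resveratrol plus DSS over the DSS control pool for the 41 tested proteasome genes, by class. Points are the 4 arrays, the black bar is their mean, and an asterisk marks an adjusted p at most 0.05 (limma). Most means lie between 0 and 0.6, blue points (slide 1) lie mostly to the right of orange points (slide 2), and Psmc5 stands alone at the left.

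These counts depended on single arrays. Without array 1 the number of member genes called higher was 1 of 40 tested, and without array 2 it was also 1 of 40, while 12.5% and 12.8% of all tested genes were still called higher. Without array 3 it was 12 of 41 (26.7% of all genes), and without array 4 it was 13 of 41 (22.2% of all genes). The gene still called when either slide 1 array was left out was Psmd8. Psmb3, Psmc1 and Psmd12 also lost their call without array 3, and Psma2, Psmc4 and Psmd12 without array 4. Arrays of slide 1 alone called 24 of 41 higher, where limma called 35.1% of all genes higher, and those of slide 2 alone called 0 of 39, where it called 5.47% of all genes higher. The excess over all genes also depended on the processing. With the scanner's processed signals 19.5% of the members were called higher, against 26.5% of all genes. With the standard error enlarged for the control pool it was 2.44%, against 8.15%. With slide fitted as a random effect it was 22.0%, against 20.8%. In that fit Psma2 (limma adjusted p = 0.0525), Psmb3 (0.0551), Psmc4 (0.067), Psmc1 (0.0695), Psmd12 (0.0718) and Psmc5 (0.0635) lost their calls.

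The slides differed for nearly every member. The mean of arrays 1 and 2 exceeded that of arrays 3 and 4 in 35 of the 37 member genes with a value on every array (94.6%), against 71.3% of 7006 such genes overall. The median gap was 0.29 for members and 0.16 for all genes. Array 2 gave the highest of the 4 values for 26 of the 37 (70.3%, against 28.8% of all genes), and array 4 the lowest for 20 (54.1%, against 32.5%).

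The gap between slides widened with the brightness of the probe. Over the 37 member genes, the correlation of mean log2 intensity with the slide gap was r = 0.591 (rho = 0.528), and over all 7006 genes it was r = 0.482 (rho = 0.416). These are descriptions across genes that share the same 4 arrays. In the brightest 25% of spots, the spots marked as outliers had median log2 ratios, centred on each array, of 0.03, -0.23, -1.33 and -0.38 on arrays 1 to 4. Unmarked spots of that brightness had 0.56, 0.28, 0.39 and 0.54. When the marked spots were kept in the normalization, 31 member genes were called higher and none lower, and with median centring in place of loess 32 were called higher and none lower. The median of all genes was 0.08 with marked spots kept, with 35.2% called higher and 27.5% lower. With median centring it was 0.25, with 38.3% called higher and 7.61% lower.

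The immunoproteasome had the highest median of the classes. Its 5 genes had a median log2 ratio of 0.41, against 0.11 for the constitutive core and 0.20 for the regulatory particle. All 5 means lay between 0.36 and 0.64, and 3 of 5 genes rose, where 25.7% of all tested genes were called higher. By array, the immunoproteasome median was 0.62, 0.53, 0.26 and 0.15. The core median was 0.27, 0.49, -0.06 and -0.05, and that of the regulatory particle was 0.34, 0.37, 0.08 and -0.02. The immunoproteasome median was therefore above those of the other classes on each array, with the smallest gap to the core on array 2. No test over so few chosen genes was made, and the median over all tested genes was 0.09, 0.08, -0.01 and 0.04 on the same arrays.

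**Figure D2:**
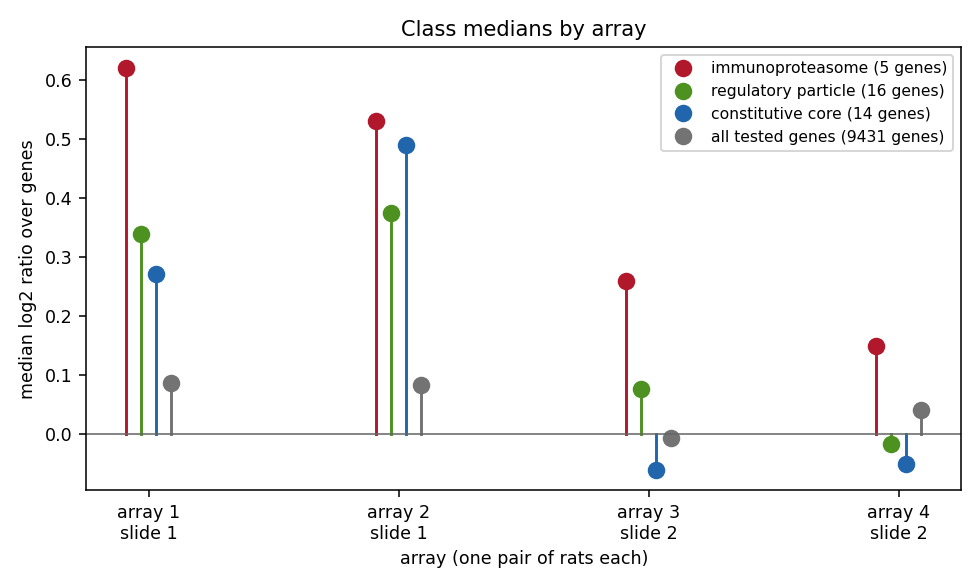
Median log2 ratio of each proteasome class on each of the 4 arrays, with the median of all 9431 tested genes in grey. Stems start at 0. The immunoproteasome (red) is highest on every array, and the core (blue) falls just below 0 on both arrays of slide 2.

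Psmb9, the inducible subunit that takes the place of Psmb6, had log2 ratios of 0.93, 0.90, 0.58 and 0.15 on arrays 1 to 4. It was positive on each, high on slide 1 and lowest on array 4. Its mean was 0.64 ± 0.15 (moderated SE, n = 4 arrays) and it rose (limma adjusted p = 0.0196).

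Psme1 and Psme2 encode the alternating subunits of the inducible cap. Psme1 read 0.89, 0.53, 0.23 and 0.30, with a mean of 0.49 ± 0.13 (limma adjusted p = 0.0269). Psme2 read 0.34, 0.37, 0.52 and 0.40, with a mean of 0.41 ± 0.08 (limma adjusted p = 0.0132). Both rose. Psme1 was highest on array 1, whereas Psme2 was nearly level over the arrays and was highest on array 3, which sets it apart from the slide order of most members.

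Psmb10, which replaces Psmb7, read 0.48, 1.02, 0.14 and -0.05 and was not called (mean 0.40 ± 0.18, limma adjusted p = 0.11). Its value on array 2 exceeded 2-fold and its value on array 4 lay below 0. Psmb8, which replaces Psmb5, read 0.62, 0.52, 0.26 and 0.02. It was positive on every array but narrowly missed the threshold (mean 0.36 ± 0.12, limma adjusted p = 0.0531). Psmb9, Psme1 and Psme2 each lost their call without array 1 and without array 2. With processed signals Psme2 was 0.24 and not called (limma adjusted p = 0.139). Psmb8 passed in 6 of 19 alternative analyses and Psmb10 in 4, among them median centring and keeping the marked spots.

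Markers of leukocytes, which carry much of the immunoproteasome of a tissue, moved the other way. Over 5 lists of leukocyte markers, 17 of 23 tested genes fell and 0 rose by limma, against 19.6% of all tested genes called lower. Of the 17, 15 were measured in both channels, while Mrc1 and Csf3r met the filter on dim probes through the control channel alone. The median log2 ratio was -0.55 for neutrophils, -0.76 for monocytes and macrophages, -0.59 for T and NK cells and -0.50 for pan-leukocyte genes. By array, the pan-leukocyte median was -0.56, -0.38, 0.22 and -0.45, and that of monocytes and macrophages -0.52, -0.59, -0.80 and -0.90. The pan-leukocyte value on array 3 is that of Ptprc alone, and the value on array 4 rests on Laptm5 and Ptprc only. In the monocyte and macrophage list, Lyz2 had no value on arrays 3 and 4. Lcp1, an actin-bundling protein of leukocytes, had a mean of -0.67 (limma adjusted p = 0.0231, values on arrays 1 and 2 alone), and Ptprc, the common leukocyte phosphatase, was not called at 0.20. Ms4a1, Cd68 and Mpo were not tested, since too few arrays showed them well above background. Colonocyte markers had a median of 0.68, with 9 of 18 risen and 0 fallen, against 25.7% and 19.6% of all tested genes. The medians of the other lists were 0.33 for goblet cells, -0.45 for endothelium, -1.18 for fibroblasts, -1.40 for smooth muscle and -2.65 for erythrocytes. They rest on 4, 2, 6, 3 and 3 tested genes, in that order. Dcn and Pdgfra of the fibroblast list and Cdh5 of the endothelium list met the filter on dim probes through the control channel alone. By array, the smooth muscle median was -0.36, -0.38, -1.76 and -3.7, with no value for Myh11 on array 4. That of goblet cells was 0.29, 0.54, -0.14 and 1.07. The part of cell composition in the proteasome ratios was not tested.

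Among the subunits that the inducible ones displace, Psmb7 rose and the others were not called. Psmb7 read 0.59, 0.75, 0.32 and 0.27 (mean 0.48 ± 0.11, limma adjusted p = 0.019), all positive. With processed signals it was 0.28 and not called (limma adjusted p = 0.144), and its call was lost without array 1 and without array 2. Psmb5 read 0.20, 0.36, -0.18 and -0.33, positive on slide 1 and negative on slide 2 (mean 0.01 ± 0.14, limma adjusted p = 0.935). Psmb6 read 0.27, -0.13, -0.14 and -0.53, with array 1 alone above 0 (mean -0.13 ± 0.14, limma adjusted p = 0.441). The sign of the Psmb5 mean turned without array 1, without array 2 and with slide 2 alone. That of Psmb6 turned with median centring, with marked spots kept, without array 4 and with slide 1 alone.

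Set against their counterparts within each array, 2 of the 3 inducible catalytic subunits had the higher ratio throughout. Psmb9 exceeded Psmb6 by 0.65, 1.03, 0.72 and 0.68, a mean of 0.77 ± 0.18 (SD, n = 4). Psmb8 exceeded Psmb5 by 0.42, 0.16, 0.43 and 0.35, a mean of 0.34 ± 0.13 (SD, n = 4). Neither difference separated the slides. Both differences were larger than their spread, but an exact two-sided sign-flip permutation test on 4 arrays cannot pass the threshold: both pairs had the smallest p it allows, which became 0.313 after adjustment over the 5 pairs.

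Psmb10 did not follow. Its difference from Psmb7 was -0.11, 0.26, -0.18 and -0.32, below 0 on 3 arrays, with a mean of -0.09 ± 0.25 (SD, n = 4; exact sign-flip permutation p = 0.5). The sign of this mean turned with the scanner's processed signals, median centring, marked spots kept and slide 1 alone, where it lay between 0.03 and 0.30. By contrast, over 19 alternatives the mean difference of Psmb9 and Psmb6 ranged from 0.57 to 0.94 and that of Psmb8 and Psmb5 from 0.29 to 0.40.

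**Figure D3:**
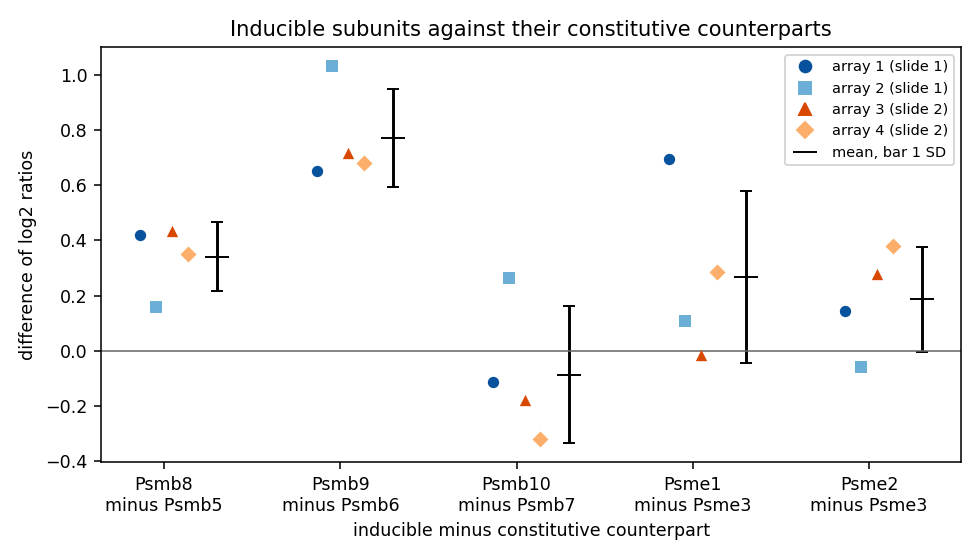
Difference of log2 ratios between an inducible subunit and its constitutive counterpart on each of the 4 arrays, with the mean and 1 SD beside the points. All 4 arrays lie above 0 for Psmb8 minus Psmb5 and for Psmb9 minus Psmb6, and 1 of 4 does for Psmb10 minus Psmb7.

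Psme3, whose product forms a nuclear activator in place of the inducible cap, read 0.19, 0.42, 0.25 and 0.02 and was not called (mean 0.22 ± 0.10, limma adjusted p = 0.0976). Psme1 exceeded it by 0.27 on average (SD 0.31) and Psme2 by 0.19 (SD 0.19), each on 3 of 4 arrays and each within about 1 SD of 0 (exact sign-flip permutation p = 0.25 for both). Psme4, an activator of the core in the nucleus, rose. Its brighter probe read 0.32, 0.46, 0.50 and 0.25 (mean 0.38 ± 0.09, limma adjusted p = 0.0181). A dimmer probe averaged 0.29 (limma adjusted p = 0.0485), with its control signal well above background on 2 of 4 arrays. The Psme3 probe holds CACCTC, a hexamer that earlier results of these data showed to be frequent among high ratios, and its part in the pair differences was not tested. Without probes that hold such a hexamer, 14 of 40 member genes were called higher.

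In the constitutive core, 4 of 14 genes rose (28.6%, near the 25.7% of all tested genes) and 0 fell by limma: 1 of 7 in the alpha ring and 3 of 7 in the beta ring. Psmb2, a structural beta subunit with no catalytic site, read 0.55, 0.75, 0.24 and 0.61 (mean 0.54 ± 0.11, limma adjusted p = 0.0133). Psmb3, another structural beta subunit, read 0.44, 0.49, 0.35 and 0.09 (mean 0.34 ± 0.10, limma adjusted p = 0.0349). Both were positive on every array, and array 3 was lowest for Psmb2 and array 4 for Psmb3. Psma2, of the ring that gates entry to the core, read 0.21, 0.49, 0.28 and 0.30 (mean 0.32 ± 0.09, limma adjusted p = 0.0297). Its arrays differed little between slides.

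The other 10 core genes were not called, with means from -0.13 to 0.33. Psma4 and Psma5 lay at the top of that range and followed the slides, each highest on array 2 and lowest on array 4. Psma3 was the exception in the ring, at -0.20, -0.09, 0.03 and 0.24, with the order of the slides turned. Psma3l, a gene closely related to Psma3, had a mean of 0.04 and was not called. The probes of these related genes share a run of at most 7 bases.

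In the regulatory particle, 5 of 16 genes rose (31.2%, against 25.7% of all tested genes) and 1 fell. Psmd8, a subunit of the lid of that particle, read 0.61, 0.66, 0.54 and 0.66. The arrays lay close together, with neither slide apart, and the gene rose by 0.62 ± 0.08 (limma adjusted p = 0.00515). Psmd8 passed the threshold in 18 of 19 alternatives and missed it with the arrays of slide 2 alone (adjusted p = 0.0565).

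Psmd13, another lid subunit, behaved alike at 0.48, 0.50, 0.40 and 0.42 (mean 0.45 ± 0.08, limma adjusted p = 0.00912). Psmd12, also of the lid, read 0.20, 0.36, 0.25 and 0.21 (mean 0.26 ± 0.08, limma adjusted p = 0.0418). The values of both were positive on all arrays. Psmd12 is named after its values were seen, and it passed in at most 9 of 19 alternatives. The 9 include slide 1 alone, where its limma adjusted p rounded to 0.05 but lay just above the threshold. The 7 other non-ATPase subunits tested were not called.

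The 6 ATPases form the ring that unfolds the substrate, and they split. Psmc4 rose on both of its probes. The brighter one read 0.21, 0.39, 0.20 and 0.29 (mean 0.27 ± 0.08, limma adjusted p = 0.0389). The second averaged 0.33 (limma adjusted p = 0.0322). Psmc1 read 0.73, 1.06, 0.69 and -0.13, high on 3 arrays and below 0 on array 4 (mean 0.59 ± 0.19, limma adjusted p = 0.0481). It is named after its values were seen, and its call was lost without array 1, 2 or 3.

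Psmc5 was the one member gene that fell. It read -0.54, -0.25, -2.27 and -0.90, negative on every array, with array 3 far below the others (mean -0.99 ± 0.32, limma adjusted p = 0.0471). Without array 3 the mean was -0.56 (limma adjusted p = 0.0215). With marked spots kept it was -0.18 (adjusted p = 0.121), and with median centring -0.37 (adjusted p = 0.0652). Without array 1, 2 or 4 the call was lost as well. Its fellow ATPases Psmc2, Psmc3 and Psmc6 had means from 0.16 to 0.21 and were not called, Psmc3 on 3 arrays that ran from 0.80 to -0.65.

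Of the assembly factors, Psmd5, a chaperone of the ATPase ring, read 0.57, 0.74, 0.46 and 0.28 (mean 0.51 ± 0.10, limma adjusted p = 0.0133). Its signal was well above background on 3 arrays in Cy5 and on 1 array in Cy3. It was thus tested only because of the channel in which it was higher. Psmd9 and Psmd10, further chaperones of that ring, had means of 0.06 and -0.16 and were not called. Psmd9 was measured on arrays 1 and 2 only, as was the brightest probe of Psmd2.

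For 7 genes more than 1 probe was tested. Their probes differed by 0.02 to 0.27 on the log2 scale, the largest gap being that of Psmd7, and no gene had probes called in opposite directions. Counted over probes, 16 of 49 rose and 1 fell, against 24.3% and 22.7% of all 18896 tested probes, of which 47.1% were called in all.

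The promoter sequences of Psmb10 and Psme2 are given because both genes belong to the inducible set and hold, upstream of their start, the core of the interferon-stimulated response element, searched for as GAAA, any 2 bases and GAAA. They were chosen after the matches were seen. The 120 bases before the start are printed 5′ to 3′ on the strand of the gene, from RefSeq on the GRCr8 build, with the motif in capitals.
Psmb10: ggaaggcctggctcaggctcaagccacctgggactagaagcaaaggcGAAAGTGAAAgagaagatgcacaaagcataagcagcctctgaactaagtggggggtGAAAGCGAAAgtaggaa
Psme2: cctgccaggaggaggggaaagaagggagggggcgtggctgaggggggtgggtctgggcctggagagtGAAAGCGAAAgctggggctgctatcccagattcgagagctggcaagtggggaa
They lie at chr19:50743293-50743412 and chr15:33052752-33052871, both on the minus strand. The motif begins 73 and 17 bases before the start of Psmb10 and 53 bases before that of Psme2. In Psmb8 a copy begins 4 bases before the start.

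A promoter window of 300 bases, 250 before and 50 after the start, was at hand for 37 of the 41 member genes. Searched on both strands, the core of the interferon-stimulated response element was found in 3 of the 5 immunoproteasome windows, in 2 of 13 core windows, in 1 of 14 of the regulatory particle and in 3.92% of all 33469 promoter windows. Psme2, which rose, held a copy in this window, whereas Psmb9 and Psme1, which also rose, held none. Psmb8 and Psmb10, which were not called, held the motif too. The gamma-activated site, TTCNNNGAA, was in 4 of 37 member windows (10.8%, against 8.87% of all). The antioxidant response element core, TGACNNNGC, was in 8 of 37 (21.6%, against 12.1%), none of them of the immunoproteasome. CCAAT, the box bound by NF-Y, was in 9 of 13 core windows (69.2%, against 37.5% of all), in 5 of 14 of the regulatory particle and 2 of 5 of the immunoproteasome, and in 19 of 37 member windows together (51.4%). A match describes letters in a window and is no evidence of binding.

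Psmb9 lies head to head with Tap1, which encodes a subunit of the peptide transporter that supplies class I molecules. The starts are 457 bases apart in RefSeq on GRCr8. Tap1 read 0.0016, 0.03, 0.30 and -0.24 and was not called (mean 0.02 ± 0.11, limma adjusted p = 0.886). Psmb9 read higher than Tap1 on all 4 arrays. The difference itself was not tested.

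Genes around the proteasome were followed in 6 lists: 3 for the tagging, extraction and receipt of substrates, and 1 each for control of subunit transcription, class I antigen processing and interferon signalling. Over all 6, 27 of 74 tested rose (36.5%) and 1 fell (1.35%), against 25.7% and 19.6% of all tested genes, with a median log2 ratio of 0.22. Of the 27, 24 were measured in both channels. The 3 lists on substrates held 14 of 40 risen (35.0%). The excess was not kept without array 1, when 9 rose (12.2% of the 74, against 12.5% of all genes). Without array 2 it was small, with 11 risen (14.9% of the 74, against 12.8% of all genes).

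Of the ubiquitin and ubiquitin activation genes, 9 of 22 rose (40.9%) and 0 fell by limma (median 0.30), against 25.7% and 19.6% of all tested genes. The polyubiquitin gene Ubb read 1.15, 1.27, 0.39 and 1.33 (mean 1.04 ± 0.17, limma adjusted p = 0.00835). It was lowest on array 3, and its Cy5 signal was saturated on 3 of 4 arrays.

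Of the genes for maturation and receptors of the proteasome, 2 of 12 rose (16.7%, below the 25.7% of all tested genes). Usp14, a deubiquitinase bound to the regulatory particle, read 0.47, 0.50, 0.44 and 0.46 (mean 0.47 ± 0.08, limma adjusted p = 0.0081). Its 4 arrays were almost level. Ube3c, a ubiquitin ligase that works at the proteasome, had a mean of 0.38 ± 0.12 (limma adjusted p = 0.0411, and 0.0713 with slide as a random effect). Pomp, the assembly factor of the core, and Adrm1, a ubiquitin receptor, had means of 0.34 and 0.32 and were not called. Around Vcp, the ATPase that extracts ubiquitinated proteins, 3 of 6 genes rose, against 25.7% of all tested genes. Vcp itself rose by 0.51, its cofactor Nsfl1c by 0.40 and Faf2 by 0.37. The calls of these 3 and of Ube3c were lost without array 1 and without array 2, and that of Usp14 without array 2. The call of Faf2 was also lost without array 4, and that of Ube3c without array 3.

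Of the genes for transcriptional control of subunits, 4 of 6 rose and 0 fell by limma (median 0.42), against 25.7% and 19.6% of all tested genes. Nfe2l1, the transcription factor that raises proteasome genes when the proteasome is impaired, read 0.69, 0.42, 0.41 and 0.49 (mean 0.50 ± 0.09, limma adjusted p = 0.00985). Ngly1 and Ddi2, the glycanase and the protease that mature the Nfe2l1 protein, averaged 0.43 (limma adjusted p = 0.0363, and 0.0594 with slide as a random effect) and 0.42 (limma adjusted p = 0.0245). Stat3 read 1.17, 0.74, 0.35 and 1.28 (mean 0.88 ± 0.17, limma adjusted p = 0.0117), again lowest on array 3. Nfe2l2, the related antioxidant factor, was not called at 0.12. Without array 1 the calls of Nfe2l1 and Ngly1 were lost, and that of Ngly1 also without array 3 and without array 4.

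Of the class I antigen processing genes, 3 of 14 rose (21.4%, below the 25.7% of all tested genes) and 0 fell by limma (median 0.12). B2m, the light chain of class I molecules, read 1.40, 1.25, -0.18 and 0.92 (mean 0.85 ± 0.26, limma adjusted p = 0.0408). The class I heavy chain gene RT1-A2 read 0.91, 0.63, -0.11 and 1.00 (mean 0.61 ± 0.19, limma adjusted p = 0.0429). Both were high on 3 arrays and below 0 on array 3. Tapbp, the loading factor tapasin, averaged 0.37 (limma adjusted p = 0.0389), and Tap2 was not called at -0.43. The other class I heavy chain genes tested, RT1-CE5, RT1-A3 and RT1-CE1, had means of 0.32, -0.08 and -0.42 and were not called. The calls of B2m, RT1-A2 and Tapbp were each lost without array 1, 2 or 4, and with slide fitted as a random effect.

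Of the interferon signalling genes, 6 of 14 rose (42.9%, against 25.7% of all tested genes) and 1 fell (median 0.02). Of the 6, 4 were measured in both channels. The receptor chains of interferon gamma and 1 of their kinases rose: Ifngr1 by 0.95 ± 0.13 (limma adjusted p = 0.00545), Ifngr2 by 1.22 ± 0.23 on 3 arrays (limma adjusted p = 0.0153) and Jak1 by 0.78 ± 0.16 (limma adjusted p = 0.0142). Jak2, the other kinase of that receptor, was not called at -0.17 (limma adjusted p = 0.134). The Ifngr2 probe holds one of the hexamers that earlier results of these data showed to be frequent among high ratios. The call of Ifngr2 was lost without array 1 and without array 2 and that of Jak1 without array 1. With marked spots kept, the value for Jak1 was 0.0062. The brightest probe of a gene was chosen again in that setting, and whether it was the same Jak1 probe was not tested. Irf9 and Irf7 are in the count although their control signal was well above background on 0 of the 4 arrays. Socs1, an inhibitor of this pathway, fell by 0.37 (limma adjusted p = 0.0178). Irf1, Gbp2, Isg15 and Ifit3, genes that interferons induce, were not called, with means from -0.16 to 0.03. Ifng itself was well above background on 1 array in Cy5 and 2 in Cy3 and was not tested.

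**Figure D4:**
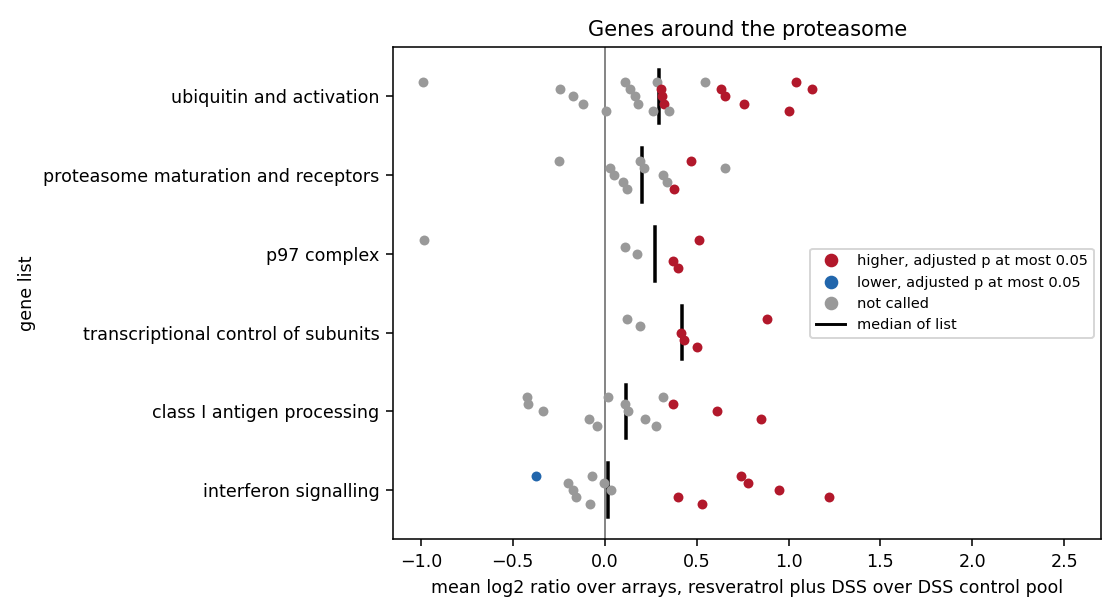
Mean log2 ratio over the arrays for each tested gene of the 6 lists around the proteasome, coloured by call (limma adjusted p at most 0.05), with each list's median as a black bar. The 27 genes called higher are in red, and Socs1 in blue is the single gene called lower.

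The immunoproteasome had the highest class median in each of the 19 alternatives, while the order of the other classes changed. The immunoproteasome median exceeded the all-gene median by 0.39, and by 0.21 to 0.64 over 19 alternatives, and it exceeded the core median by 0.14 to 0.40. The core median exceeded that of all genes by 0.09 and ranged from -0.09 to 0.50. It was below the all-gene median without array 1, without array 2 and with slide 2 alone. For the regulatory particle the excess was 0.18 and ranged from 0.0074 to 0.37. It was above that of the core as reported but below it with median centring (0.34 against 0.40) and with marked spots kept (0.37 against 0.50). With slide 1 alone it nearly equalled that of the core (0.223 against 0.224).

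**Figure D5:**
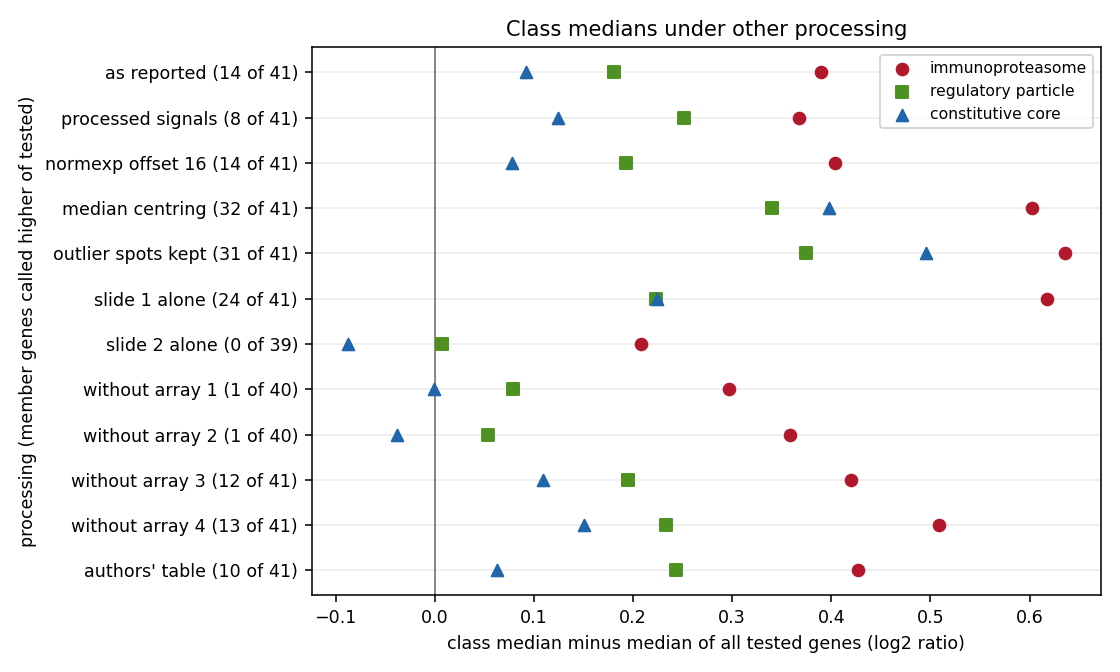
Median log2 ratio of each proteasome class minus the median of all tested genes, as reported and under 11 of the 19 alternatives, with the number of member genes called higher beside each. The immunoproteasome (red) is right of the other classes in each line, and the core (blue) moves from -0.09 with slide 2 alone to 0.50 with marked outlier spots kept.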

How the data were processed

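The deposited scanner files hold raw and processed intensity per spot and channel; their headers give Agilent Feature Extraction 9.5.3.1 as the software, and limma is a further tool in the submitters' processing notes. The authors also deposited a table of log2 ratios for 24197 probes, whose columns correlated with the ratios computed here at r = 0.876 to 0.94, with medians of -0.013, -0.013, 0.091 and -0.025; its slopes of 1.25 to 1.40 leave its background correction unknown, and it served as an alternative. Mean signals were background-corrected (limma 3.58.1 in R 4.3.3, normexp, offset 50), then loess-normalized within arrays, with control and outlier spots at weight 0. Spots of a probe were averaged. A probe was tested if well above background in a channel on at least 3 arrays and with at least 2 values; lmFit and eBayes compared the mean with 0, adjusted by Benjamini-Hochberg over 18896 probes. The brightest tested probe stood for a gene, named through RefSeq (GRCr8). The fit was tested on simulated data. Precision is limited by having 4 arrays. The labels do not say how many controls the pool held.

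Members and lists were chosen with earlier results of these data known. Named genes were the immunoproteasome and exchange-pair genes, other members called with 1 sign on all arrays, and up to 3 called genes per list; Psmc1, Psmd12, Ddi2, Irf7, Irf9, Socs1, the single markers and genes given as not called were added after their values were seen. Alternatives changed the signals, normexp offset (16), normalization, dim-probe filter, outlier spots, arrays, slide, prior, array weights, probes holding CACCTC or ACCTCA (hexamers frequent among high ratios in those earlier results), gene summary, standard error and source table. A few genes of the surrounding lists are counted but not reported here by name.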

Additional observations from a re-analysis of the deposited data

How the results depend on the processing

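The member genes called higher were 14 as reported, and 8 with processed signals, 32 with median centring, 31 with outlier spots kept, 9 with the slide as a random block, 24 with slide 1 alone, 0 with slide 2 alone, 1 with the standard error enlarged for the control pool, and 1 to 13 when an array was left out. The 1 member called lower (Psmc5) became 0 with median centring, with both channels required above background on all arrays, with outlier spots kept, with the slide as a random block, with slide 2 alone, with the enlarged standard error and with array weights, and 0 to 1 when an array was left out. Beside these, all genes called higher were 25.7% as reported, 26.5% with processed signals, 38.3% with median centring, 35.2% with outlier spots kept and 20.8% with the random block. With slide 1 alone they were 35.1% and with slide 2 alone 5.47%. With the enlarged standard error 8.15% of all genes were called higher, against 2.44% of the members. The causes were not tested. With slide 2 alone, no member was called by limma, against 749 higher and 1006 lower among all probes.

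The class medians moved with median centring to 0.65 for the core, 0.59 for the regulatory particle and 0.85 for the immunoproteasome, and with outlier spots kept to 0.57, 0.45 and 0.71. With slide 1 alone that of the immunoproteasome was 0.71. Psmb10 minus Psmb7 turned to 0.030 with processed signals, 0.18 with median centring, 0.30 with outlier spots kept and 0.076 with slide 1 alone. The mean of Psmb6 turned to 0.14 with median centring, 0.00216 with outlier spots kept and 0.070 with slide 1 alone, and ranged from -0.27 to 0.000512 when an array was left out. That of Psmb5 turned to -0.25 with slide 2 alone and ranged from -0.10 (without array 2) to 0.13, with -0.048 without array 1.

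Of all probes, 4601 were called higher and 4295 lower. These became 2587 and 1975 with both channels above background on all arrays, and 1460 and 730 with the enlarged standard error. With median centring 1842 were lower. Leaving out an array gave 1956 to 4755 higher and 1421 to 4221 lower. Of the genes in the 6 surrounding lists, 27 were higher and 1 lower. Median centring gave 44 and 0, slide 2 alone 1 and 0, and the enlarged standard error 8 and 0. Those lower were 2 with outlier spots kept and with array weights, and 3 with slide 1 alone and with the authors' table. Leaving out an array gave 9 to 30 higher and 0 to 3 lower. Marker medians moved with median centring to 1.30 for colonocytes, 0.94 for goblet cells, -0.55 for monocytes and macrophages, -0.061 for pan-leukocyte genes, -0.97 for fibroblasts and -2.19 for erythrocytes.

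No paired analysis was possible because all 4 arrays belong to 1 group compared with 1 control pool, and array numbers follow accession order. Over 37 named genes and 19 alternatives, 516 single-gene values kept direction and side of the threshold, 162 lost it, 14 gained it and 7 turned sign. Dim probes limit Psmd5, and bright outlier spots on slide 2 limit the level of the class medians.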

Other observations

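Besides the 50 matched probes, 14 probes carry a description that names the proteasome while their gene name falls outside the rule. Of these, 2 rose: a predicted transcript described as similar to a beta type 3 subunit (0.66, 0.45, 0.34 and 0.36, mean 0.45 ± 0.09, limma adjusted p = 0.0136) and one described as similar to non-ATPase subunit 8 (0.53, 0.55, 0.53 and 0.61, mean 0.55 ± 0.08, limma adjusted p = 0.0059). The probe of the second shares a run of 21 bases with that of Psmd8, whose ratios were also nearly level over the arrays, and whether both probes read the same transcript was not tested. The probe of the first shares at most 7 bases with that of Psmb3. 

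Psmb11, the thymic form, and Psma8, the germ cell form, appear among those 14 under older names and were not tested, since too few arrays showed a signal well above background.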
